A study of Homo sapiens with 192 samples.

Results

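The nuclear genes of the respiratory chain were examined in single-nucleus ATAC-seq of HAP1 cells, a near-haploid human line that grows attached and was derived from a leukemia line. They were taken as the autosomal protein-coding genes of the GENCODE annotation whose names mark subunits of complexes I to V (NDUFA, NDUFB, NDUFC, NDUFS, NDUFV, SDHA to SDHD, UQCR, COX4 to COX8 and the ATP5F, ATP5M and ATP5P series), together with the features within 1000 bp of their starts. The rule gave 94 genes of 19111, with 71 features of 80971. It also took in the 8 complex I assembly factors named NDUFAF, which are described apart, and the readthrough genes NDUFC2-KCTD14 and ATP5MF-PTCD1. Subunits encoded on the X chromosome or in mitochondria were not analysed here.

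The study labeled nuclei with CASB, a concanavalin A and streptavidin complex that carries a DNA barcode, and pooled them with unlabeled nuclei of the same line. Nuclei were tagged with Tn5 transposase, which inserts adapters into open DNA, and sorted into 2 plates of 96 wells. The only grouping known for a cell is its plate, so each plate is 1 mixed sample of HAP1, no test between conditions was made and every interval covers counting error only. After filtering, 83 nuclei of plate 1 and 79 of plate 2 passed, with 345 to 12449 read pairs in features (median 2029) in plate 1 and 361 to 15351 (median 2162) in plate 2. A gene is called seen in a nucleus when at least 1 of its features held a read pair.

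Many wells of the same plate shared peaks. Of 25114 features seen in exactly 2 of all cells, 17777 (70.8%) fell in the same pairs of wells, namely cells 37 to 48 with the cell numbered 36 higher (11555 features) and cells 73 to 84 with the cell numbered 12 higher (6222 features). Cells 37 to 48 and 73 to 96 held 71 of the passing nuclei, 35 in plate 1 and 36 in plate 2. Values use all wells unless another choice is named. The medians, the leading genes and the plate comparison were also computed without these cells (91 nuclei) and with each linked set of wells counted once (60 wells or sets in plate 1 and 55 in plate 2). Whether linked wells hold separate nuclei was not tested. Counts and intervals over all wells may therefore include some nuclei more than once.

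Markers for the label of the line were looked up at their starts. The hematopoietic genes PTPRC, CD34, SPI1, RUNX1, ITGA2B and CD33 had no feature at their starts, and KLF1, an erythroid factor, was seen in 2 nuclei. The genes of attached cells VIM, CDH2, FN1 and CAV1 were seen in 11, 15, 17 and 22 nuclei, and ITGB1 had no feature. GATA1, also on the list, is not autosomal and was left out. Of all 19111 autosomal protein-coding genes, 9958 had no feature, so a missing one says little about a single gene. These values describe the starts and do not settle the identity of the line.

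The respiratory chain moves electrons from NADH through complex I and from succinate through complex II to ubiquinone, on through complex III and cytochrome c to complex IV, where oxygen is reduced. Complexes I, III and IV pump protons across the inner mitochondrial membrane, and complex V uses the gradient to make ATP. All these complexes except complex II combine nuclear-encoded subunits with subunits made inside mitochondria. The nuclear genes are active in almost every cell type, and their promoters are textbook targets of the factors NRF1, GABP and YY1.

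Promoters of the complexes are shown first, because open chromatin at these starts is what was measured. They are the 200 bases before the RefSeq start (GRCh38.p14), printed along the strand of the gene. For each complex the gene seen in the most nuclei was taken that had 1 RefSeq promoter entry with its start inside a deposited feature, and had a window overlapping annotated exons by at most 30 bases. Capitals mark the letters of 6 motifs on either strand: GCATGCGC (NRF1), CCGGAAGT (GABP and other ETS factors), AAGATGGC (YY1), GGGCGG (SP1), CCAAT (NF-Y) and TATAAA, the box of many core promoters.
NDUFB4, complex I, chr3:120596136-120596335, plus strand: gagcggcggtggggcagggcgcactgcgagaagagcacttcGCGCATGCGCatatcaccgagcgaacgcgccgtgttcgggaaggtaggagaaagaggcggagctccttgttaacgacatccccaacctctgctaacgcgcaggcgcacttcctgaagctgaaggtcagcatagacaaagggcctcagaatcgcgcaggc
NDUFAF4, complex I assembly, chr6:96897892-96898091, minus strand: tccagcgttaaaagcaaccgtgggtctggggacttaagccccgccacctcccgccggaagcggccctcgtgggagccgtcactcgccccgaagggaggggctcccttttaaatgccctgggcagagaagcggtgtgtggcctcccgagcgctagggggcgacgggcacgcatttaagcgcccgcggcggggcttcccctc
SDHB, complex II, chr1:17054033-17054232, minus strand: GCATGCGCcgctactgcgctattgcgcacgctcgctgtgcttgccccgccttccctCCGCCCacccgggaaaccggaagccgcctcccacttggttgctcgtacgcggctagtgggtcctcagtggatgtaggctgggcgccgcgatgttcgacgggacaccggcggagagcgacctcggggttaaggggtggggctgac
UQCR10, complex III, chr22:29767169-29767368, plus strand: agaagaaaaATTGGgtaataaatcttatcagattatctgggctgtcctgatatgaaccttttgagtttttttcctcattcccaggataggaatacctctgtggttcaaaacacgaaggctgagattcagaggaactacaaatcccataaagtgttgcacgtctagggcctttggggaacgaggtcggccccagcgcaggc
COX8A, complex IV, chr11:63974420-63974619, plus strand: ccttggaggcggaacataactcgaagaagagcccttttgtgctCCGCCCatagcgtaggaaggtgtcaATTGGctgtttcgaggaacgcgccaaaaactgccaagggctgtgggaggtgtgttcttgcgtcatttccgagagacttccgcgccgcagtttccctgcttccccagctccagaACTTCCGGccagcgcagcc
ATP5F1C, complex V, chr10:7787977-7788176, plus strand: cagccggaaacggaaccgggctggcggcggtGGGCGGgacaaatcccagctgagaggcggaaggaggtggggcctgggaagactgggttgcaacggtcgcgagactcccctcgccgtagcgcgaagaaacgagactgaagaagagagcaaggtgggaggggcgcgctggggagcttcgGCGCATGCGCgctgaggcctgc

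The NDUFB4 and ATP5F1C windows each held the NRF1 letters on both strands, overlapping so that the capitals run together, at -157 on the gene strand in NDUFB4 and at -20 in ATP5F1C, counted from the start. SDHB held the NRF1 letters at -200. COX8A held the GABP letters on the opposite strand at -19, together with 1 SP1 and 1 NF-Y match. UQCR10 held only an NF-Y match and NDUFAF4 none of the letters, which says no more than that these letters are not in these windows. The full RefSeq promoter of NDUFAF4, which is longer than the printed window, holds the NRF1 letters, and NDUFAF4 is among the genes counted next.

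RefSeq promoters, running from 250 bases before to 50 after the start, were at hand for 74 of the 94 genes, 63 of them with a start within 1000 bp of the GENCODE start, and for 14616 autosomal protein-coding genes in all. The NRF1 letters stood in 15 of the 74 promoters (20.3%), against 4.17% of all promoters. The YY1 letters stood in 11 (14.9%, against 3.99%) and the GABP letters in 10 (13.5%, against 6.45%). At least 1 of these 3 motifs was in 30 promoters (40.5%), against 13.4% of all. The general promoter motifs were about as frequent as elsewhere: SP1 in 42 promoters (56.8%, against 59.6%), NF-Y in 25 (33.8%, against 36.3%) and the TATA box in 6 (8.11%, against 9.72%). A match is a description of the sequence and not evidence of binding.

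**Figure D1:**
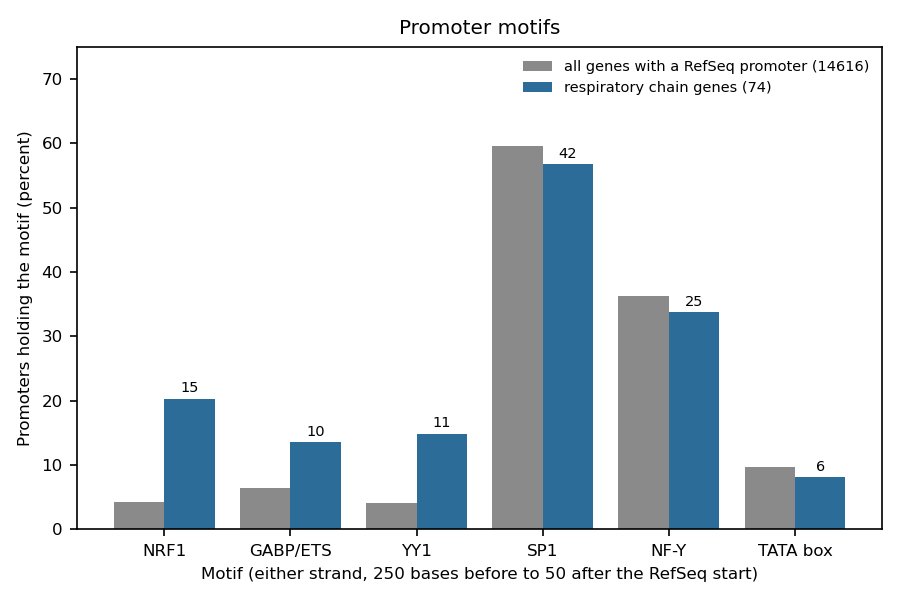
Share of promoters (percent, y axis) that hold each motif on either strand, for the 74 respiratory chain genes (blue, number holding above each bar) and all 14616 genes with a RefSeq promoter (gray). The NRF1, GABP/ETS and YY1 shares of the respiratory chain genes stand above those of all genes, and the SP1, NF-Y and TATA box shares lie close to them.

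By complex, the matches were spread unevenly over small numbers. NRF1 letters were in 4 of 13 complex V promoters, 5 of 31 complex I promoters, 2 of 13 of complex IV, 2 of 3 of complex II and 0 of 7 of complex III. GABP letters were in 3 of the 7 complex III promoters, those of UQCRH, UQCRQ and UQCR11. YY1 letters were in 6 complex I and 3 complex V promoters and in 0 of complex IV. ATP5PF, SDHB, NDUFS7 and NDUFA6 each held both the NRF1 and the YY1 letters.

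A feature lay within 1000 bp of the start of 59 of the 94 genes (62.8%). Across autosomal protein-coding genes the share was 47.9%. The same step gave 55 of 78 mitochondrial ribosomal protein genes (70.5%), 47 of 74 cytosolic ribosomal protein genes (63.5%) and 27 of 39 proteasome subunit genes (69.2%), which are other sets of genes used by nearly every cell. By complex, features stood at 22 of 36 complex I genes, all 8 assembly factors, 3 of 4 complex II genes, 5 of 9 of complex III, 8 of 18 of complex IV and 13 of 19 of complex V. Features were called on the cells of both plates together at low depth, so a gene without one had no peak call here, which is not a measurement of closed chromatin.

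The 59 genes with a feature were seen in a median of 6 passing nuclei of both plates (3.70%), with quartiles of 2.47% and 6.17%. Their plate medians were 3.61% for plate 1 and 3.797% for plate 2. All 9153 genes with a feature had a median of 8 nuclei (4.94%, quartiles 3.09% and 8.64%). The medians were 4.32% for the mitochondrial ribosomal and the proteasome genes and 3.70% for the cytosolic ribosomal genes. At least 10 nuclei were reached by 16 of the 59 genes (27.1%), against 42.2% of all genes with a feature. A feature was more frequent at these starts than at protein-coding starts in general, while the nuclei that showed it were fewer. The second comparison moved with the wells that share peaks. Without cells 37 to 48 and 73 to 96 both medians were 4.40%, although without the assembly factors as well that of the respiratory chain genes was 3.30%. With linked wells counted once they were 5.22% for the respiratory chain genes and 6.09% for all genes. By complex, leaving out those cells gave medians of 4.4% for complex I, 3.30% for complexes II and IV, 5.49% for complex III and 2.20% for complex V, whose median with all wells was 3.70%. Medians in this setting are each a few of 91 nuclei, so the steps between them are single nuclei. The complexes were not tested against each other.

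**Figure D2:**
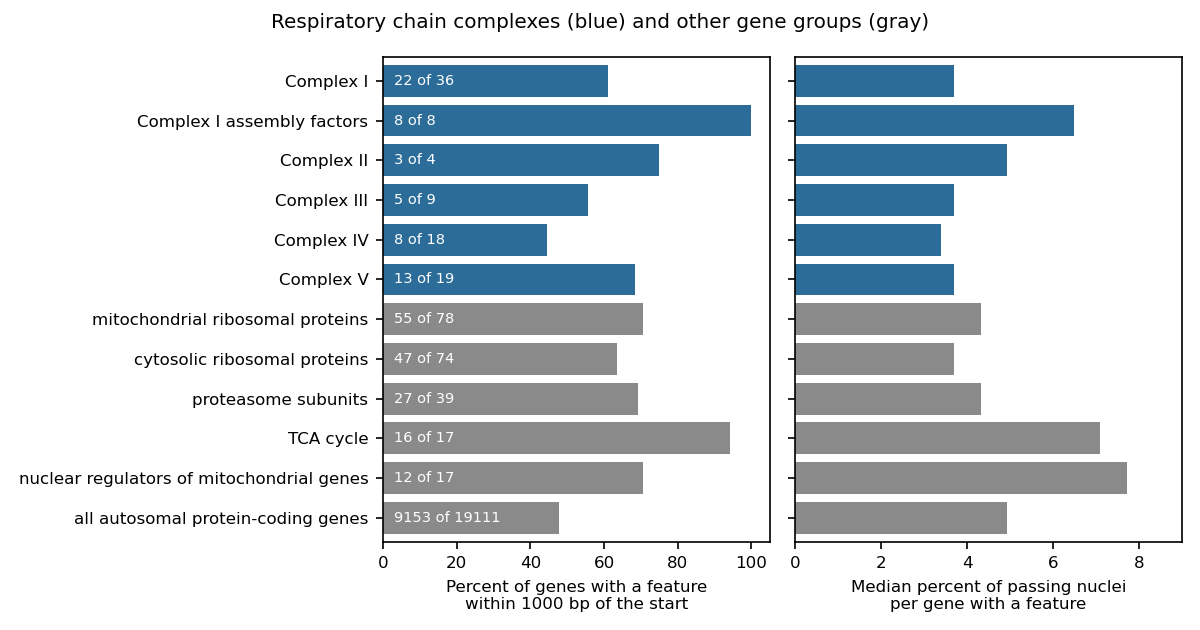
Left, share of genes (percent) with a feature within 1000 bp of the start, with the counts in the bars. Right, median percent of all passing nuclei in which the genes with a feature were seen. Complexes are blue and other groups gray; complex I assembly factors (6.48%) and the TCA cycle (7.10%) stand, with all wells, above the subunits of complexes I, III, IV and V (3.395% to 3.70%).

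Every complex contained genes seen in over 5% of nuclei beside genes with no feature, so levels are given gene by gene. All features have 1 length, and a gene with several features had a larger window: this held for 11 of the 59 genes, among them NDUFAF2, NDUFAF6, SDHA, UQCRB and ATP5F1C.

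**Figure D3:**
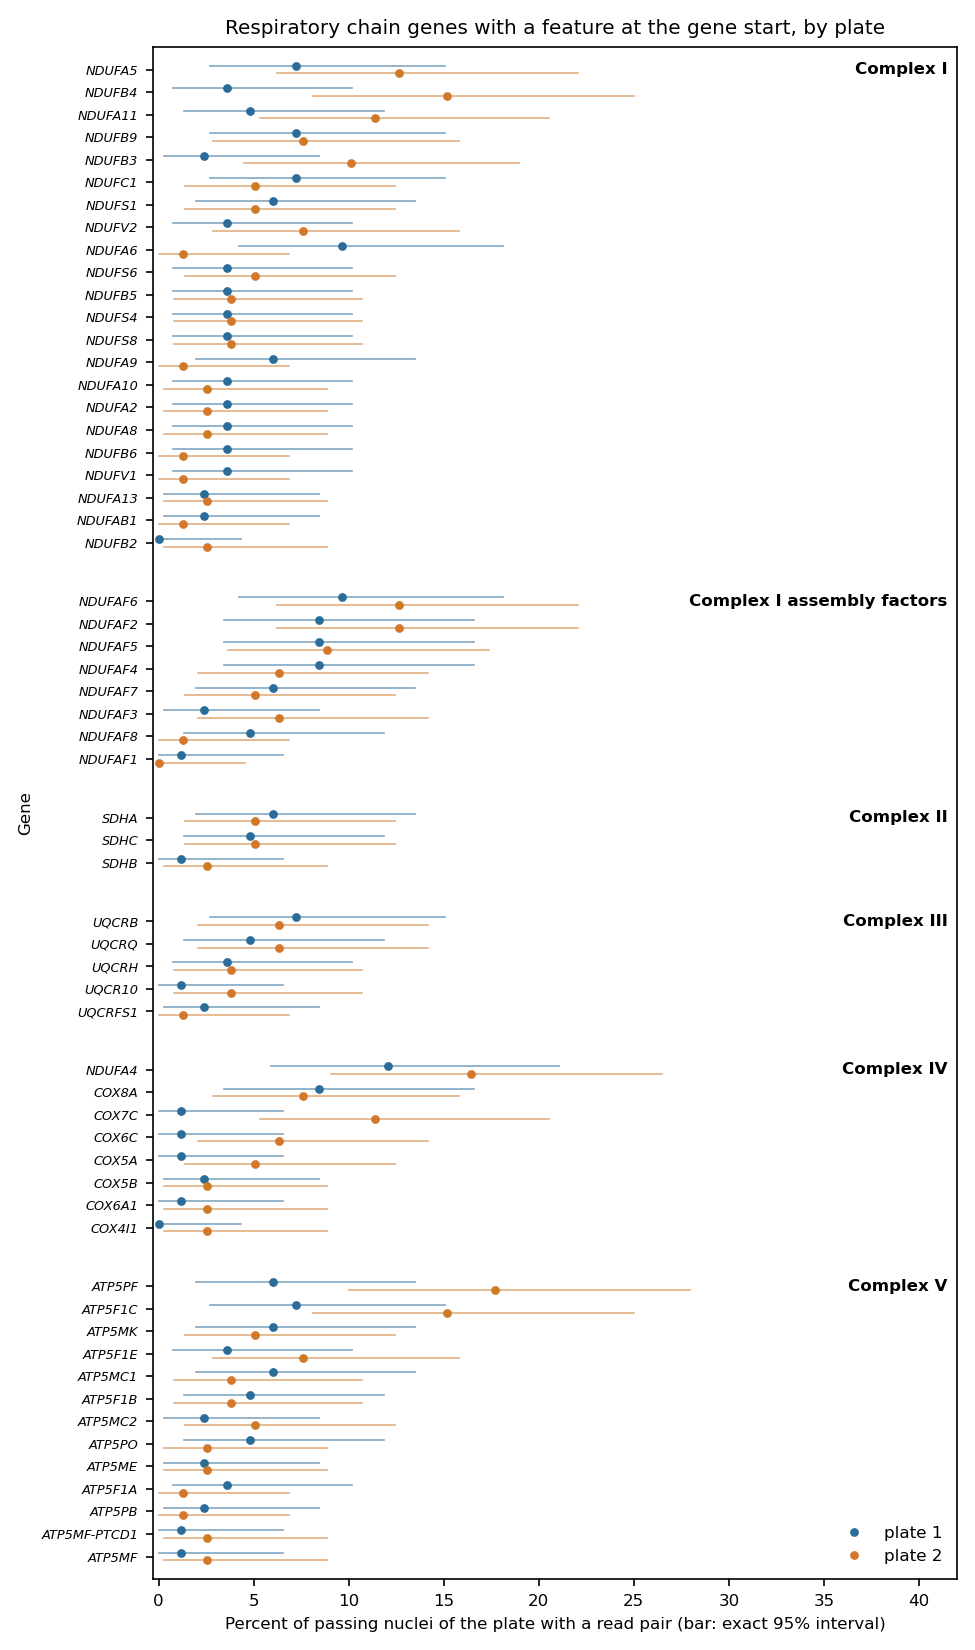
Percent of passing nuclei (x axis) in which each of the 59 genes with a feature was seen, by complex, in plate 1 (blue, 83 nuclei) and plate 2 (orange, 79 nuclei), with exact 95% intervals of the counts as bars. The intervals of the plates overlap for every gene; NDUFB4, COX7C and ATP5PF lie farther right in plate 2 and NDUFA6 in plate 1.

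Complex I, the NADH dehydrogenase, had its highest values at accessory subunits, which make up most of its genes with a feature. NDUFA5, a subunit of the arm that faces the matrix, was seen in 6 nuclei of plate 1 (7.23%, exact 95% interval 2.70% to 15.1%) and 10 of plate 2 (12.7%, 6.24% to 22.05%), through a feature at chr7:123557326-123558326 that contains its start. NDUFB4, of the membrane arm, followed with 3 and 12 nuclei and NDUFA11 with 4 and 9. These neighbours in the order did not differ beyond their counting intervals. NDUFA5 also led without cells 37 to 48 and 73 to 96, level with NDUFB9 at 10 nuclei, whereas NDUFB4 fell from 15 to 4. With linked wells counted once NDUFA5 had 16, NDUFB9 12 and NDUFB4 and NDUFA11 11 each. The NDUFA11 feature, with its center 640 bp upstream of the start, also served VMAC.

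The core subunits of complex I, some of which carry the flavin or iron-sulfur clusters, ranged from 9 nuclei to none. NDUFS1, the largest iron-sulfur subunit, was seen in 5 and 4 nuclei of plates 1 and 2. NDUFV2 was seen in 3 and 6, NDUFS8 in 3 and 3, and NDUFV1, the flavin-binding subunit, in 3 and 1. NDUFS3 and NDUFS7 had no feature at the gene start. Accessory subunits ranged from 16 nuclei to none, so the ranges overlapped. The complex I genes that reached 10 nuclei (NDUFA5, NDUFB4, NDUFA11, NDUFB9, NDUFB3 and NDUFC1) were all accessory. Most complex I genes with a feature are accessory, and the core genes NDUFS1 and NDUFV2 had 9 nuclei each. Core and accessory subunits were not tested against each other.

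The complex I genes with a feature seen in the fewest nuclei were NDUFB2 (0 and 2), NDUFAB1, the mitochondrial acyl carrier protein (2 and 1), and NDUFB6 (3 and 1), with NDUFV1 and NDUFA13 also at 4 nuclei in all. Apart from those core subunits, NDUFS5, NDUFB8, NDUFC2, NDUFC2-KCTD14, NDUFA12, NDUFB1, NDUFB10, NDUFA7, NDUFB7, NDUFA3 and NDUFV3 had no feature.

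All 8 NDUFAF genes, whose products build complex I and are not part of it, had a feature, and their median was 6.48%. NDUFAF6 was seen in 8 and 10 nuclei of plates 1 and 2, NDUFAF2 in 7 and 10 and NDUFAF5, a hydroxylase acting on NDUFS7, in 7 and 7. The lowest were NDUFAF1 (1 and 0), NDUFAF8 (4 and 1) and NDUFAF3 (2 and 5). With linked wells counted once the median of the 8 was 8.70%, beside 4.78% for the complex I genes. Without cells 37 to 48 and 73 to 96 the medians were 6.04% and 4.4%. NDUFAF5 then led the assembly factors with 10 nuclei, followed by NDUFAF6 with 8, NDUFAF4 with 7 and NDUFAF2 with 6.

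Of other complex I assembly factors and regulators, 7 of 11 had a feature, with a median of 6.79%. TMEM126B was seen in 14 and 12 nuclei and FOXRED1 in 11 and 11, both more than any complex I gene, but their intervals (10.8% to 22.6% and 8.71% to 19.8%) overlapped that of NDUFA5 (5.75% to 15.5%). ACAD9, NUBPL, DMAC1 and DMAC2 had no feature. Without cells 37 to 48 and 73 to 96 the median of this list was 3.30%, and with linked wells counted once it was 8.70%. The lists of assembly genes were compared by these values only and not tested.

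Complex II, succinate dehydrogenase, is the only complex made wholly from nuclear genes and also an enzyme of the TCA cycle. SDHA, its flavoprotein, was seen in 5 and 4 nuclei of plates 1 and 2 (6.02% and 5.06%), through features at chr5:217556-218556 and chr5:218535-219535. SDHC, a membrane anchor, was seen in 4 and 4 nuclei, and SDHB, the iron-sulfur subunit, in 1 and 2. SDHD, the other anchor, had no feature. Its start lies head to head with that of TIMM8B.

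Complex III, the cytochrome bc1 complex, was led by UQCRB, which binds ubiquinone, with 6 and 5 nuclei, then UQCRQ with 4 and 5 and UQCRH, the hinge protein, with 3 and 3. UQCRFS1, the Rieske iron-sulfur protein, was seen in 2 and 1 and UQCR10 in 1 and 3. Neither gene of the large core proteins, UQCRC1 and UQCRC2, had a feature, nor did UQCR11 and UQCRHL. CYC1, which encodes cytochrome c1, a catalytic subunit of this complex that the naming rule did not take in, was seen in 2 and 4 nuclei. CYCS, the gene of its electron acceptor cytochrome c, was seen in 4 and 13.

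Complex IV, cytochrome c oxidase, held the gene seen most often of all 94 when all wells were used. NDUFA4, first assigned to complex I and now placed in complex IV, was seen in 10 nuclei of plate 1 (12.05%, 5.93% to 21.04%) and 13 of plate 2 (16.5%, 9.06% to 26.5%), through a feature at chr7:10939934-10940934. Of its 23 nuclei, 6 lay outside cells 37 to 48 and 73 to 96, and with linked wells counted once it was seen in 7 and 10. The first place was then lost: without those cells NDUFA5, NDUFB9 and NDUFAF5 led with 10 nuclei each and COX8A had 8, and with linked wells counted once NDUFA4 and ATP5F1C had 17 each. COX8A followed with 7 and 6 nuclei (12 with linked wells counted once), and its interval over both plates (4.34% to 13.3%) overlapped that of NDUFA4 (9.22% to 20.5%).

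COX7C was seen in 1 nucleus of plate 1 and 9 of plate 2, COX6C in 1 and 5 and COX5A in 1 and 4. The fewest nuclei were at COX4I1 (0 and 2), COX6A1 (1 and 2) and COX5B (2 and 2). COX6B1, COX7A2, COX7A2L and all tissue-restricted isoforms of this complex had no feature at the gene start. The share of complex IV genes with a feature, 44.4%, was the lowest of the complexes, but 7 of its 18 genes are such isoforms. Without these it was 8 of 11 (72.7%), beside 61.1% for complex I and 62.5% for complex III without UQCRHL.

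Several subunits exist as a widely expressed gene and another gene restricted to tissues such as heart, muscle, lung or testis, or induced by low oxygen. The 9 restricted forms (COX4I2, COX6A2, COX6B2, COX7A1, COX7B2, COX8C, NDUFA4L2, ATP5MGL and UQCRHL) all lacked a feature. Of the 8 widely expressed counterparts, 5 had one: NDUFA4 (23 nuclei), COX8A (13), UQCRH (6), COX6A1 (3) and COX4I1 (2). COX6B1, COX7A2 and ATP5MG had none. Without the 9 restricted genes, 59 of 85 genes (69.4%) had a feature, close in size to the shares of the ribosomal and proteasome sets.

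Complex V, the ATP synthase, was led by ATP5PF, a subunit of the stalk that holds the catalytic head, and ATP5F1C, the central rotor subunit. ATP5PF was seen in 5 nuclei of plate 1 (6.02%, 1.98% to 13.5%) and 14 of plate 2 (17.7%, 10.04% to 27.9%). Its feature, at chr21:25734675-25735675, also lies at the start of GABPA, which encodes the DNA-binding subunit of GABP, so the reads cannot be assigned to either gene. ATP5F1C was seen in 6 and 12 nuclei, and its features were shared with KIN. Without cells 37 to 48 and 73 to 96, ATP5PF had 8 nuclei, ATP5MK 7, and ATP5F1C and ATP5MC1 6 each. With linked wells counted once ATP5F1C had 17 and ATP5PF 16.

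The head of the enzyme is built of alternating alpha and beta subunits. ATP5F1B, the catalytic beta subunit, was seen in 4 and 3 nuclei and ATP5F1A, the alpha subunit, in 3 and 1. ATP5F1E was seen in 3 and 6, and ATP5F1D had no feature. ATP5MK, with 5 and 4 nuclei, stood level with ATP5F1E at 9 in all, and the fewest were at ATP5PB (2 and 1) and at ATP5MF and ATP5MF-PTCD1, which share 1 feature (1 and 2).

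The c ring through which protons pass is made of the same mature protein from ATP5MC1, ATP5MC2 and ATP5MC3. ATP5MC1 was seen in 5 and 3 nuclei and ATP5MC2 in 2 and 4, a difference within the spread between plates, and ATP5MC3 had no feature. ATP5MG, ATP5MJ, ATP5PD and ATP5MGL also had none.

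The values between plates were set side by side for genes seen in at least 10 nuclei. Of 16 such respiratory chain genes, 6 (37.5%) differed at least 2-fold, against 18.9% of the 3858 such genes in all. All 6 were higher in plate 2. With all wells, 728 of all genes were at least 2-fold apart. Of these, 432 (59.3%) were higher in plate 2, which is 11.2% of the genes compared. Without cells 37 to 48 and 73 to 96 the direction turned: 37.0% of all genes 2-fold apart were higher in plate 2. Shares of nuclei are not corrected for depth. In that setting plate 1 kept 48 nuclei with 120207 read pairs in features, and plate 2 kept 43 with 92318. The part of depth in this turn was not tested. The 6 respiratory chain genes were NDUFB4 (3.61% and 15.2%, plate 1 and plate 2), NDUFB3 (2.41% and 10.1%), NDUFA11 (4.82% and 11.4%), COX7C (1.20% and 11.4%), ATP5PF (6.02% and 17.7%) and ATP5F1C (7.23% and 15.2%). The exact intervals of the plates overlapped for each. The 6 genes encode subunits of complexes I, IV and V. Features of NDUFB3 (with HYCC2), NDUFA11 (with VMAC), ATP5PF (with GABPA) and ATP5F1C (with KIN) are shared with other gene starts. Reads in these cannot be assigned to either gene. Of the 8 assembly factors, 4 reached 10 nuclei and could be compared.

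Too few of these genes reached 10 nuclei outside the wells that share peaks to repeat the comparison there. With linked wells counted once, 4 of 14 genes remained at least 2-fold apart (NDUFB4, NDUFA11, ATP5PF and ATP5F1C), against 16.8% of all genes, and COX7C (1 and 8) and NDUFB3 (2 and 7) fell under 10. Without cells 37 to 48 and 73 to 96, NDUFB4 was seen in 2 and 2 nuclei, NDUFB3 in 1 and 2, NDUFA11 in 2 and 6, COX7C in 0 and 4, ATP5PF in 3 and 5 and ATP5F1C in 1 and 5. Relative to the passing nuclei left, plate 2 was 1.12 times plate 1 for NDUFB4, 2.23 times for NDUFB3 and 1.86 times for ATP5PF, where with all wells it had been 4.203 times for the first 2 and 2.94 times for ATP5PF. It was 3.35 times for NDUFA11 and 5.58 times for ATP5F1C, where it had been 2.36 and 2.10 times. Each of these rests on at most 8 nuclei and is not corrected for depth. The genes that still reached 10 nuclei were NDUFA5, NDUFB9 and NDUFAF5, none of them among the 6. Lowering the minimum to 5 nuclei left 15 of 42 genes at least 2-fold apart, against 28.8% of all such genes, 12 of them higher in plate 2 and 3 (NDUFA6, NDUFA9 and NDUFAF8) higher in plate 1. Among all genes 2-fold apart at this minimum, with all wells, 63.2% were higher in plate 2. At the minimum of 10 nuclei without cells 37 to 48 and 73 to 96 it was 37.0%. NDUFA6, with 9 nuclei in all, was seen in 8 nuclei of plate 1 and 1 of plate 2, and in 5 and 1 without those cells. The part of linked wells in the plate difference was not tested, and the labels give no difference between the cells of the plates.

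The same comparison was made in read pairs. The 71 features, 0.0877% of all, held 282 of 240092 read pairs in plate 1 (0.117%, 0.104% to 0.132%) and 361 of 238287 in plate 2 (0.151%, 0.136% to 0.168%). Without cells 37 to 48 and 73 to 96 the shares were 0.139% (0.119% to 0.162%) and 0.154% (0.130% to 0.181%), and their intervals overlapped. A pair is counted in every feature it lies in, so overlapping features repeat pairs, and 20 of the 71 features overlapped another (16.5% of all features). Over features that overlap no other, the shares were 0.108% (0.0929% to 0.124%) in plate 1 and 0.127% (0.111% to 0.144%) in plate 2, and the intervals overlapped. Of these, the 8 complex IV features held 25 and 52 read pairs, 21 of complex I held 84 and 88, 3 of complex II held 5 and 9, 4 of complex III held 11 and 18, 10 of complex V held 46 and 45, and 5 of the assembly factors held 23 and 15. Of the 533 values above 0 in these features, 454 (85.2%) were a lone read pair, against 84.6% in all features.

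Within a nucleus few of these genes were seen. The median was 2 genes (range 0 to 17), and 41 nuclei (25.3%) showed none. The median was also 2 without cells 37 to 48 and 73 to 96, and 3 with linked wells counted once. The number rose with depth: with the nuclei ordered by depth and cut into 3 sets of 54, the median was 0 genes at 345 to 1322 read pairs, 2 at 1355 to 3183 and 6 (range 1 to 17) at 3196 to 15351. With each nucleus thinned to 600 read pairs (73 nuclei a plate, 16 shallower ones left out), the median over both was 0 and the means were 0.630 genes in plate 1 and 0.767 in plate 2, against unthinned means of 2.55 and 3.23.

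**Figure D4:**
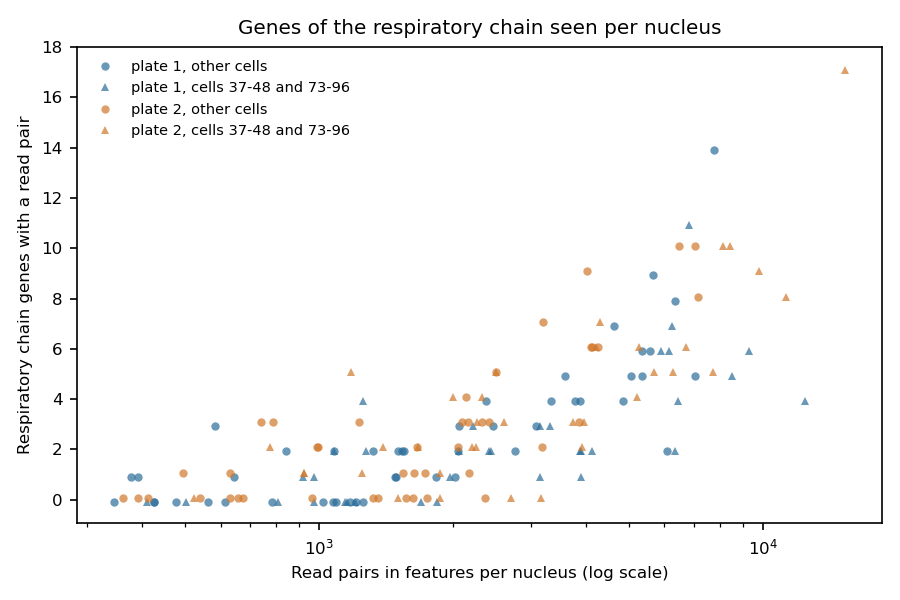
Number of respiratory chain genes seen (y axis) against read pairs in features (x axis, log scale) for each passing nucleus, by plate (color) and by whether the cell is among cells 37 to 48 and 73 to 96 (triangles). The count rises with depth in both plates, to 17 genes in the deepest nucleus.

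At least 1 complex I gene was seen in 81 nuclei (50%), 1 of complex V in 60 (37.0%), of complex IV in 50 (30.9%), of complex III in 27 (16.7%) and of complex II in 19 (11.7%). Leaving out cells 37 to 48 and 73 to 96, the shares were 47.3%, 34.1%, 25.3%, 18.7% and 10.99% in the same order of complexes, and with linked wells counted once 55.7%, 40.9%, 33.9%, 20.9% and 14.8%. These shares follow the number of genes with a feature in each complex, from 22 in complex I to 3 in complex II. All 5 complexes were seen together in 2 nuclei, both of plate 2. Between plates the share for complex IV was 25.3% and 36.7%, and for complex I 48.2% and 51.9%.

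The start was inside a feature for 49 of the 94 genes (52.1%), against 39.7% of all genes. Among genes with a feature the shares were 83.05% (49 of 59) and 82.9% (7589 of 9153). The center of the nearest feature was within 100 bp of the start for 22 of the 59 genes with one (37.3%), against 35.04% of all genes with a feature. At NDUFC1, NDUFV1, NDUFB2, NDUFAF3, ATP5MC2 and COX4I1 the feature was off the start, with its center at 1170 bp downstream of the start in NDUFC1, 1310 in NDUFV1, 1157 in NDUFAF3, 1238 in ATP5MC2 and 966 in COX4I1, and 1148 bp upstream of it in NDUFB2. It was also off the start, but nearer, at NDUFAF1 (821 bp downstream), NDUFB6 (602), ATP5PB (557) and NDUFA11 (640 bp upstream).

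Genes gained when every annotated transcript start was used included NDUFS3, NDUFV3, COX7A2 and COX7A2L. At these other starts COX7A2L was seen in 14 nuclei, COX7A2 and NDUFS3 in 11 each and NDUFV3 in 2. The bases around the GENCODE gene start of COX7A2 had 37.7% G+C, the lowest of the 94, and the ratio of observed to expected CpG there was 0.0869. With these starts 64 of 94 genes (68.1%) had a feature, against 56.4% of all genes.

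Head-to-head starts were frequent. For 22 of the 94 genes (23.4%) another protein-coding gene began on the opposite strand within 1000 bp upstream, against 8.68% of all genes. The share was 21.8% for mitochondrial ribosomal, 13.5% for cytosolic ribosomal and 12.8% for proteasome genes. It was 24.4% for the assembly genes of complexes II to V and cytochromes c listed below. Of the 22 respiratory chain genes, 17 (77.3%) had a feature, against 58.3% of the other respiratory chain genes. Over all genes the shares were 75.1% and 45.3%. Partners included other mitochondrial genes: NDUFS6 lay opposite MRPL36 and NDUFB5 opposite MRPL47, both of the mitochondrial ribosome, and SDHD opposite TIMM8B, of the protein import machinery.

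Of the 59 genes with a feature, 32 (54.2%) shared at least 1 feature with the start of another protein-coding gene, against 27.8% of all genes with a feature. The 5 seen in most nuclei were ATP5PF (with GABPA), ATP5F1C (with KIN), NDUFAF6 (with CCNE2), NDUFAF2 (with ERCC8) and NDUFAF5 (with ESF1). Reads in such features cannot be told apart by gene, and the NDUFAF median rests on 7 of 8 genes of this kind. Complex IV had 0 head-to-head genes among 18, and 2 of its 8 genes with a feature shared it, while NDUFA4, COX8A and COX7C each had a feature of their own.

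Base composition within 500 bp of the start was close to that of all genes: the median G+C was 58.3% for the 94 genes and 59.3% for all genes. Among all genes the share with a feature rose from 14.9% under 45% G+C to 62.02% between 65% and 70%. The respiratory chain genes did not follow this slope in these counts. A feature stood at 14 of 16 genes between 50% and 55% G+C, where the share of all genes was 43.7%, at 22 of 33 between 55% and 60% (53.9%), and at 10 of 20 between 60% and 65% (59.1%). The 20 genes between 60% and 65% included the restricted forms COX4I2, COX7A1, COX8C and NDUFA4L2, which all lacked a feature. No restricted form lay between 50% and 55%. Chromosome 19, where 26.96% of all genes had a feature, held 12 of the 94 genes, of which NDUFA11, NDUFA13 and UQCRFS1 had one.

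**Figure D5:**
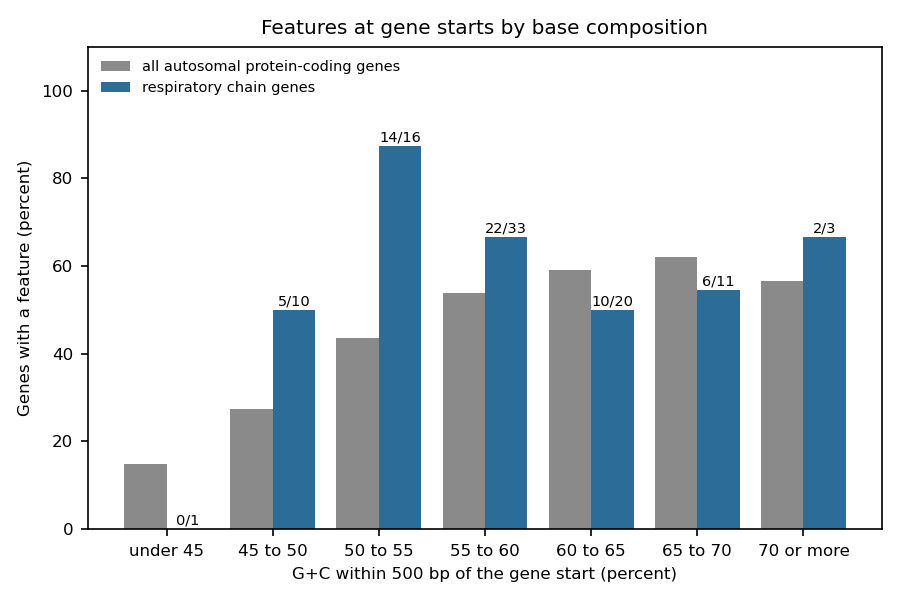
Share of genes with a feature (percent, y axis) by G+C within 500 bp of the gene start (x axis, percent), for all autosomal protein-coding genes (gray) and the respiratory chain genes (blue, counts above the bars). The gray bars rise up to 65% to 70% G+C, and the tallest blue bar is at 50% to 55% (14 of 16 genes).

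Lists of genes that work around the chain were read beside it. Of the TCA cycle and pyruvate entry genes 16 of 17 had a feature, with a median of 7.10% (6.59% without cells 37 to 48 and 73 to 96, and 10% with linked wells counted once). FH, fumarase, was seen in 23 and 11 nuclei of plates 1 and 2 (20.99% of both, 14.99% to 28.1%) and SUCLG2 in 12 and 8. DLST had no feature. The interval of FH lay above that of SDHA, the TCA cycle gene of the chain seen most often with all wells (2.57% to 10.3%). With linked wells counted once it also lay above those of SDHA and SDHC, then level (17.6% to 34.2%, beside 3.05% to 13.2%). Without those cells SDHC led with 5 nuclei, and its interval (1.81% to 12.4%) met that of FH (12.2% to 29.4%). FH was named because it was the highest of its list, so this is a description.

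Of 41 genes for assembly of complexes II to V and for cytochromes c and c1, 26 (63.4%) had a feature, with a median of 6.48% (6.04% without those cells, and 8.26% with linked wells counted once). COX20, a chaperone for a complex IV subunit, was seen in 17 and 13 nuclei and LYRM7, which matures the Rieske protein, in 16 and 11. UQCC1, UQCC3, UQCC5, SDHAF1, SURF1, COX16, COA3, COA7, COA8, PET100, TACO1, ATPAF1, ATPAF2, ATP5IF1 and OXA1L had no feature. The interval of COX20 (12.9% to 25.4%) overlapped those of NDUFA4 and COX8A, the leading complex IV genes, and that of LYRM7 (11.3% to 23.3%) overlapped that of UQCRB (3.44% to 11.8%).

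Of 17 nuclear regulators of mitochondrial genes 12 had a feature, with a median of 7.72% (7.14% without those cells, and 10% with linked wells counted once). TFB1M, a methyltransferase of the mitochondrial ribosome, was seen in 18 and 15 nuclei and PPARGC1B, a coactivator, in 11 and 9, as was MTERF1. Among the factors of this list whose motifs were counted, NRF1 was seen in 1 and 2 nuclei, YY1 in 2 and 2, SP1 in 4 and 9 and GABPA in 5 and 14 through the feature it shares with ATP5PF. PPARGC1A, GABPB1, GABPB2, POLRMT and MTERF2 had no feature.

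The comparison sets had genes of the same range. MRPS9 (16.05%) led the mitochondrial ribosomal genes, followed by MRPL50 and MRPL17 (15.4% each). RPL7 (13.6%) and RPL37 (11.7%) led the cytosolic ones and PSMB1 and PSMA2 (11.7% each) the proteasome, beside 14.2% (9.22% to 20.5%) for NDUFA4. These intervals overlap, and the sets were not tested against each other.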

How the data were processed

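The authors trimmed reads with fastp, aligned them with bowtie2 to hg38, dropped reads of mapping quality under 20 and of mitochondria, removed duplicates within each cell, ran MACS2 on the cells of both plates pooled, and took 500 bp on either side of each summit as a feature. Counts come from featureCounts, as deposited: whole read pairs, not normalized, with a pair counted in every feature it overlaps.

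All columns were matched to cells by title, and the 24 chromosome names and all feature ends were checked against hg38. Features seen in at least 2 cells were used to pass cells with more than 300 of them. Gene starts are from GENCODE 44. A feature belonged to a gene when its nearest base was within 1000 bp of the start. Intervals are exact (Clopper-Pearson, 95%, scipy 1.17.1). Promoter sequences are from RefSeq (GRCh38.p14), all 100 entries with member names matched hg38, and those on chromosome 8 were not printed. The functions for features, shares and plate ratios were tested on simulated data. Genes named were the 3 seen in most and in fewest nuclei of each complex, those without a feature (1 gene is not reported here), the isoform pairs and those 2-fold apart between plates; others were named after their values were seen. The members and gene lists were chosen with earlier results of these data known, and roles are textbook background. The CASB label of each cell was not known here, and no separate cultures are named.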

Additional observations from a re-analysis of the deposited data

How the results depend on the processing

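Depth and the wells that share peaks limit these results, because most genes rest on fewer than 10 nuclei. Shares of genes and of read pairs were held to their 95% interval, and medians and counts to 1.5 times their value: of 27 alternatives, 17 stayed within this and 10 did not. The share of the 94 genes with a feature fell from 62.8% to 52.1% when the feature had to contain the start. The median share of nuclei went from 3.70% to 0.685% with cells thinned to 600 read pairs. For all genes with a feature it went from 4.94% to 1.37%. In cells with more than 1000 peaks the medians were 5.04% for the respiratory chain genes and 6.72% for all genes. The median number of respiratory chain genes per nucleus went from 2 to 0 with thinning. The share of read pairs went from 0.134% to 0.107% when features had to contain the start, to 0.117% over features that overlap no other and to 0.145% without cells 37 to 48 and 73 to 96. Among genes seen in at least 5 nuclei, 15 of 42 were 2-fold apart between plates, against 28.8% of all genes (12 of 41, against 26.2%, with linked wells counted once), and 0 of 1 among those seen in at least 20, against 8.97%. Without cells 37 to 48 and 73 to 96 it was 0 of 3, against 21.2%, and none of the 6 genes named for this difference was among those 3. Of all genes 2-fold apart in that setting, 37.0% were higher in plate 2, where with all wells it was 59.3%. The direction among all genes turned when these cells were left out. Shares of nuclei are not corrected for depth, and the part of depth in this turn was not tested. Counting linked wells once and leaving out overlapping features were chosen after seeing the data. No paired analysis was possible because each plate is 1 sample and no test between plates was made.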
